A study of Mus musculus with 18 samples.

Results

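The subject is the difference between microglia, the macrophages that reside in the brain, of the corpus callosum and of the cortex of mice at postnatal day 7 (P7). The comparison rests on the 3 arrays labelled as corpus callosum microglia and the 3 arrays labelled as cortex microglia at that age, out of 18 arrays in the series, and the difference is always corpus callosum minus cortex. All animals were untreated C57Bl/6 mice kept under specific pathogen-free conditions, with no transgene or other allele named. The cells were enriched on a Percoll gradient and sorted as CD45+ CD11b+ Gr1- cells, a gate set against neutrophils that other CD11b-positive macrophages can pass. The other groups are corpus callosum and cortex microglia at postnatal day 3 (P3) and in the adult, with 3 arrays each and no exact adult age given. The labels do not say whether an array holds 1 animal or several pooled animals, so the p-values measure only the spread between these samples.

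In the corpus callosum, a tract of white matter, oligodendrocytes begin to wrap axons with myelin after birth. Microglia of developing white matter are known for an amoeboid shape, for uptake of debris and living cells, and for a transcript set that includes CD11c and insulin-like growth factor 1. Macrophages digest what they take up in acidic lysosomes, pass on the released lipids through lipoproteins, membrane transporters and lipid droplets, and adjust lysosome formation through MITF and related transcription factors. By its title, the study addresses what microglia contribute to myelin formation and to oligodendrocytes.

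Values are log2 expression levels, so a difference of 1 is a 2-fold change. Genes are named as called where limma's test over all 22180 genes gave an adjusted p under 0.05. Every adjusted p below comes from that fit, unless an omitted array or another fit is named. Of these genes 100 were called, which is 0.451% of those tested. In corpus callosum 99 were higher (0.446% of genes tested) and 1, the zinc finger gene Zfp975, was lower (0.00451% of genes tested). With only the 6 P7 arrays in the fit 40 genes were called, 36 of them among the 100. The 99 higher genes had a median difference of 1.08, against 0.00 over all genes, and the smallest difference among them was 0.54. A difference above 2 was reached by 12 of the 99, and 48 lay under 1. On the 3 corpus callosum arrays all 99 lay above the 3 cortex arrays without overlap, which was the case for 8.97% of all genes in that direction. The 99 were called on these same arrays, so the lack of overlap here and below describes them and is no further evidence for a difference. The smallest two-sided p that a permutation of 3 against 3 arrays allows is 0.1, so no gene could pass such an exact test on its own.

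**Figure D1:**
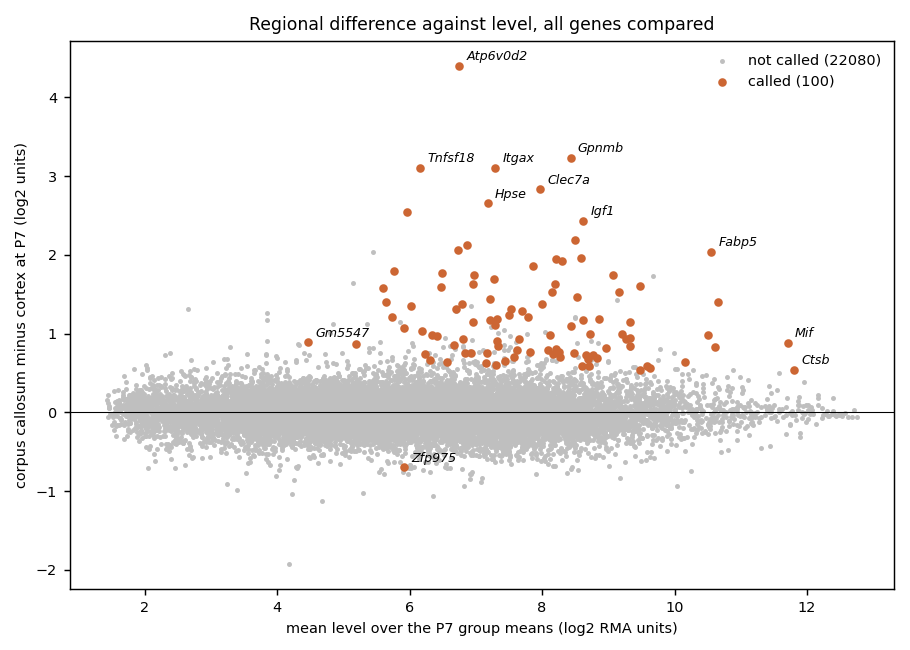
Each point is a gene, with its mean level over the 2 P7 group means on the horizontal axis (log2 RMA units) and the difference of corpus callosum minus cortex on the vertical axis (log2 units). The 100 called genes are orange; 99 lie above 0, from 0.54 to 4.40, and Zfp975 lies below it at -0.70.

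The P7 arrays had medians between 5.61 and 5.63. Corpus callosum replicate 1 stood apart in the called genes: it was the highest of the 6 arrays for 93 of the 99 higher genes, against 20.7% of all genes. The 2 shares are not alike, since the highest array of the 99 genes had to be 1 of the 3 corpus callosum arrays. The median of the 99 genes above the cortex mean was 1.43 on corpus callosum replicate 1, 0.88 on replicate 2 and 0.90 on replicate 3. Without replicate 1 the median difference of the 99 genes was 0.91 and the smallest was 0.46, and 48 of the 100 genes remained called. When another array was left out, 52 remained without cortex replicate 1, 53 without cortex replicate 2, 60 without cortex replicate 3, 76 without corpus callosum replicate 2 and 82 without corpus callosum replicate 3. Under every such omission 45 genes remained called. The mean of the Y-linked Kdm5d, Eif2s3y and Uty was 4.40 on cortex replicate 1 and between 6.88 and 7.65 on the other 5 arrays, whereas Xist was 11.84 on cortex replicate 1, 10.91 on corpus callosum replicate 1 and between 4.07 and 5.09 on the other 4. The part of these sex-linked differences in the regional difference was not tested gene by gene. With the Y-linked mean as a covariate, 107 genes were called, 94 of the 100 among them. Corpus callosum replicate 1 had a Y-linked mean of 6.88 beside its high Xist, so it showed signal of both sexes. The covariate places this array near those with low Xist and cannot adjust for its Xist level.

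The labelled cell type was in place in both regions. P2ry12, a purinergic receptor typical of microglia, read 12.01, 12.04 and 12.10 in cortex and 11.48, 11.82 and 11.91 in corpus callosum. All 8 microglia markers measured had a difference below 0, with a median of -0.17 and none called, whereas 50.8% of all genes lay above 0. Markers of other cells were called in 0 of 10 neuronal, 0 of 7 oligodendrocyte, 0 of 7 oligodendrocyte precursor, 0 of 7 astrocyte, 0 of 8 endothelial and mural, 0 of 7 monocyte, 0 of 9 neutrophil, 0 of 6 lymphocyte and 0 of 1 erythroid genes. Mbp, the myelin basic protein gene, read 5.65, 5.78 and 5.62 in cortex and 6.28, 6.21 and 6.07 in corpus callosum (difference 0.50 ± 0.11 (SE), adjusted p 0.0501), while the median of the 7 oligodendrocyte markers was -0.01. Gap43, a gene of growing axons, read 7.40, 7.29 and 7.29 in cortex and 6.5, 6.39 and 6.57 in corpus callosum (-0.84 ± 0.18, adjusted p 0.052), while 5 of the 10 neuronal markers lay above 0 and 5 below, with a median of -0.07. Mbp and Gap43 lay just outside the threshold, and in these sorted samples a different share of cells and a different amount of RNA per cell cannot be told apart.

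**Figure D2:**
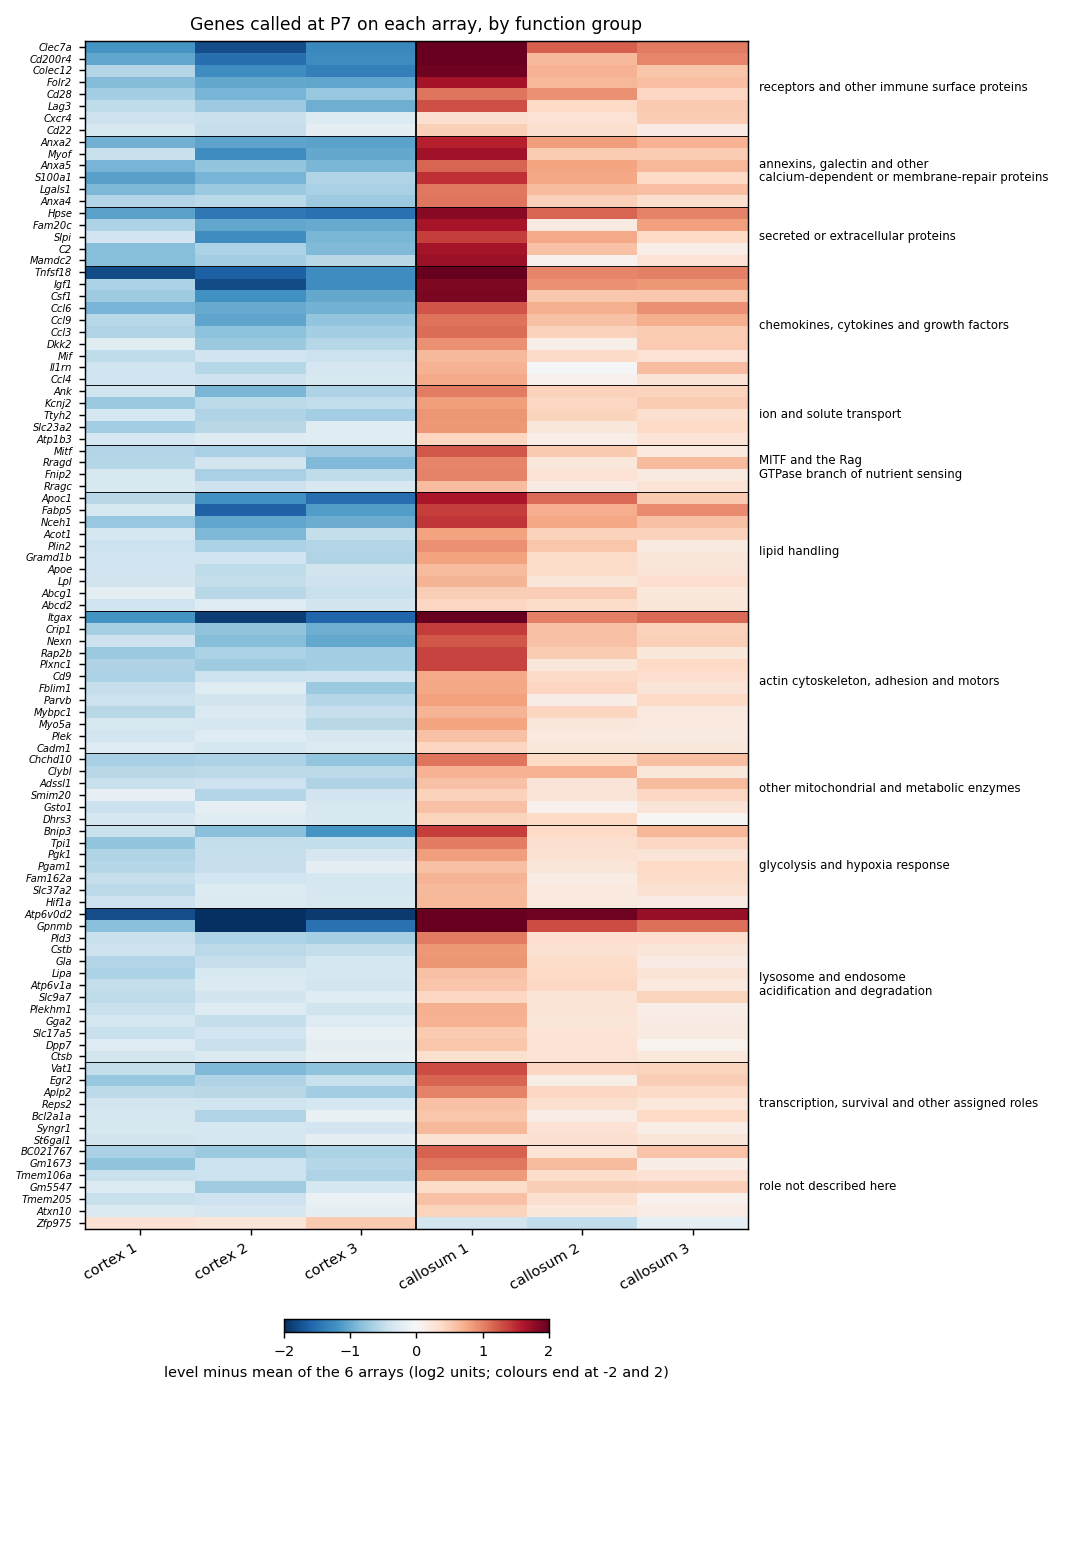
Rows are the 100 called genes in their function groups and columns are the 6 P7 arrays; the colour is the level minus the mean of the 6 arrays (log2 units, colours end at -2 and 2). For the 99 higher genes the cortex columns are blue and the corpus callosum columns mostly red, deepest on replicate 1, the highest array for 93 of the 99; Zfp975 shows the opposite.

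For description the 100 genes were placed in 13 groups by textbook function, after the calls were known. In the gene lists set beside these groups, rose and fell count members called higher and called lower. Of all genes 0.446% were called higher, 0.00451% were called lower and 50.8% lay above 0. The largest group, with 13 genes, concerned the acidification and content of lysosomes and endosomes and ranged from 0.54 to 4.40 with a median of 0.77. Atp6v0d2 encodes a form of a membrane-sector subunit of the vacuolar proton pump, and read 4.98, 3.84 and 4.83 in cortex and 9.68, 8.69 and 8.49 in corpus callosum. Its difference of 4.40 ± 0.46 (21.2-fold, adjusted p 5.31e-05) was the largest of all called genes, although its cortex level lay below the array medians, where signal was not told apart from background. Gpnmb, a transmembrane glycoprotein of lysosomes and phagosomes, read 7.60, 5.91 and 6.94 against 10.87, 9.74 and 9.54 (3.24 ± 0.34, adjusted p 5.31e-05). In both genes the lowest corpus callosum array exceeded the highest cortex array, by 3.51 and 1.94 log2 units. The catalytic subunit of the same pump, Atp6v1a, read 7.78, 7.97 and 7.87 in cortex and 8.81, 8.67 and 8.45 in corpus callosum (0.77 ± 0.12, adjusted p 0.00373). Pld3, a nuclease of the lysosome, read 8.88, 8.70 and 8.66 against 10.37, 9.66 and 9.66 (1.15 ± 0.16, adjusted p 0.001). These smaller differences were again free of overlap, with gaps of 0.48 and 0.78 between the regions.

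The other lysosomal members are hydrolases, carriers and trafficking factors. Higher in corpus callosum were Lipa, the acid lipase that splits cholesteryl esters (0.84), Gla, alpha-galactosidase A (0.94), the protease Ctsb, the peptidase Dpp7 (0.60) and Cstb, an inhibitor of cathepsins (0.95). So were Slc17a5, which carries sialic acid out of lysosomes (0.66), the organellar sodium/proton exchanger Slc9a7 (0.75), Plekhm1, an adaptor for fusion with lysosomes (0.75), and Gga2, a sorting adaptor of the Golgi (0.73, and 0.65 on a further probe set). Ctsb had the smallest difference of all called genes (0.54 ± 0.11, adjusted p 0.0309). Of the 13 genes 5 remained called without corpus callosum replicate 1, 5 without cortex replicate 1 and 6 without cortex replicate 2; whichever array was left out, Atp6v0d2, Gpnmb, Pld3, Cstb and Atp6v1a remained. Of the wider list of lysosomal hydrolases and membrane proteins 3 of 30 measured genes were called higher and 0 lower. In that list 25 lay above 0 and the median was 0.18. Among proton pump subunits 2 of 17 were called higher, 0 lower, 15 lay above 0 and the median was 0.30. Atp6v1b2, another subunit, missed the threshold at 0.55 ± 0.13 (adjusted p 0.0952). Of 17 cathepsins and cystatins 2 were called higher, 0 lower, 11 lay above 0 and the median was 0.18. Cst7 stood at 0.60 ± 0.14 (adjusted p 0.0787) and Ctsl at 0.51 ± 0.14 (adjusted p 0.206).

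A group of 4 genes belongs to the machinery that ties lysosome formation to nutrients: the transcription factor Mitf, the small GTPases Rragc and Rragd, which bind MITF-family factors and mTORC1 at the lysosome, and Fnip2, a partner of folliculin. Mitf read 6.93, 6.88 and 6.80 in cortex and 8.77, 8.04 and 7.72 in corpus callosum (1.31 ± 0.20, 2.48-fold, adjusted p 0.00248). Rragd read 5.16, 5.38 and 4.85 against 6.71, 5.96 and 6.37 (1.22 ± 0.22, adjusted p 0.012). Every corpus callosum array exceeded every cortex array in both, with Mitf highest on corpus callosum replicate 1. Fnip2 rose by 0.98 and Rragc by 0.70. Only Mitf remained called whichever array was left out. Without corpus callosum replicate 1 the adjusted p of Rragd was 0.134, and that of Mitf was 0.00794. Of 21 MITF-family factors and autophagy genes 3 rose and 0 fell, where 0.446% of all genes were called higher. In this list 20 differences were above 0, against 50.8% of all genes, and the median was 0.23. Gabarap and Map1lc3b, which mark autophagosomes, stood at 0.46 ± 0.12 (adjusted p 0.187) and 0.50 ± 0.16 (adjusted p 0.318), and the MITF relative Tfec at 0.45 ± 0.16 (adjusted p 0.43).

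MITF and its relatives bind the letters CACGTG, which are shared with many other factors of the same structural class. The RefSeq table of promoters (mouse build GRCm38.p6) held 103 promoter windows, from 250 bases before to 50 bases after a start, for 80 of the 99 higher genes. CACGTG, which reads the same on both strands, stood in 12.6% of these windows and in 8.07% of the 20611 windows of all 16990 genes in the table. The longer TCACGTG, searched on both strands and holding CACGTG, stood in 7.77% and 4.51%. Counted by gene, the shares were 16.2% (13 of 80) and 9.19% for CACGTG, and 10% and 5.13% for TCACGTG. Of the 13 called genes with CACGTG, Atp1b3, Bnip3, Egr2, Hif1a, Kcnj2 and Slpi belong to groups other than lysosomes, nutrient sensing and lipids. No window of Gpnmb held a match. The stretches upstream of the start are shown for 5 of the 13 genes, picked from those groups, with CACGTG in capitals. They lie at chrX:134601164-134601255 (minus strand), chr16:44139355-44139420 (minus strand), chr2:25356370-25356435 (minus strand), chr4:123917291-123917356 (plus strand) and chr3:27182948-27183003 (plus strand), in the order given.
Gla: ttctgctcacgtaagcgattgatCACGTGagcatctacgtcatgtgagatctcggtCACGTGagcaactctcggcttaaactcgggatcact
Atp6v1a: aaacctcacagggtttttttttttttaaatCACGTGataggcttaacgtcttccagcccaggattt
Dpp7: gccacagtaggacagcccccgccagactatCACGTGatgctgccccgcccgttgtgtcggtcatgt
Rragc: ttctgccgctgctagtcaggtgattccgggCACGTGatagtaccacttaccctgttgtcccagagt
Nceh1: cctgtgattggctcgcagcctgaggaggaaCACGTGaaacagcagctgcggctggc
The window of Gla held the motif at 2 places and the other 4 at 1. A match describes the letters of a window and is no measurement of binding.

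Lipid handling was represented by 10 genes, with a median of 1.01 and a range from 0.68 to 2.19. Apoc1, an apolipoprotein, read 7.94, 7.30 and 6.98 in cortex and 10.14, 9.63 and 9.02 in corpus callosum (2.19 ± 0.25, 4.57-fold, adjusted p 0.000107). Fabp5, an intracellular fatty acid carrier, read 10.23, 8.94 and 9.44 against 11.94, 11.29 and 11.50 (2.04 ± 0.26, adjusted p 0.00045). Nceh1, a hydrolase of cholesteryl esters whose upstream CACGTG is shown above, read 7.10, 6.81 and 6.87 against 9.29, 8.63 and 8.45 (1.86 ± 0.19, adjusted p 3.93e-05). The regions were more than 1 log2 unit apart at their closest arrays in each of these 3 genes. The 3 further probe sets of Fabp5, a gene with close copies in the genome, gave 2.02, 2.57 and 3.05, and the further probe set of Nceh1 gave 1.60. Over all groups 10 called genes had 12 further probe sets, all above 0, of which 7 passed in limma's fit over all probe sets and 5 did not (Hif1a, Pgam1, Rap2b, Cd9 and Gga2).

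The other lipid genes cover the steps from lipoprotein to storage. Higher in corpus callosum were the apolipoprotein Apoe (0.84), the lipase Lpl, which releases fatty acids from lipoproteins (0.84), and the cholesterol exporter Abcg1 (0.79). Plin2, a coat protein of lipid droplets, rose by 1.09, Gramd1b, which moves cholesterol from the plasma membrane to the endoplasmic reticulum, by 0.94, the acyl-CoA thioesterase Acot1 by 1.15 and the peroxisomal fatty acid transporter Abcd2 by 0.68. Plin2 read 8.0, 7.81 and 7.86 in cortex and 9.35, 8.99 and 8.62 in corpus callosum. Abcg1 read 7.44, 7.08 and 7.18 against 8.12, 8.12 and 7.83. Both were free of overlap, by 0.62 and 0.40, and in Abcg1 replicates 1 and 2 of corpus callosum had the same level. Of the 10 genes 4 remained called whichever array was left out (Apoc1, Fabp5, Nceh1 and Gramd1b), the same 4 that remained without corpus callosum replicate 1. In the list of lipid uptake, storage and efflux 7 of 28 were called higher, 0 lower, 23 lay above 0 and the median was 0.51. Pltp, a phospholipid transfer protein, was just outside at 0.68 ± 0.15 (adjusted p 0.0542). No gene of sterol synthesis was called among 17, and 2 of them lay above 0, against 50.8% of all genes. The other 15 lay below 0, and the median of the list was -0.25. The lowest p values were those of Sqle at -0.55 ± 0.21 (adjusted p 0.5), whose arrays overlapped, and Stard4 at -0.41 ± 0.16 (adjusted p 0.518).

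Glycolysis and the response to low oxygen were represented by 7 genes with a median of 0.82. Bnip3, a protein of the outer mitochondrial membrane that directs mitophagy and is a classical target of hypoxia-inducible factors, read 6.52, 6.13 and 5.79 in cortex and 8.35, 7.36 and 7.63 in corpus callosum (1.64 ± 0.28, 3.11-fold, adjusted p 0.0081). Tpi1, triosephosphate isomerase, read 7.82, 8.14 and 8.13 against 9.64, 8.94 and 9.03 (1.17 ± 0.20, adjusted p 0.00733). In both the corpus callosum arrays were the higher ones, with replicate 1 the highest. The transcription factor subunit Hif1a rose by 0.69 ± 0.13 (adjusted p 0.0187). Pgk1 and Pgam1, which act in the later steps of glycolysis, rose by 0.93 and 0.82, the mitochondrial protein Fam162a by 0.79 and the sugar phosphate exchanger Slc37a2 by 0.76. Further probe sets did not pass in limma's fit over all probe sets: that of Pgam1 stood at 0.28 ± 0.20 (adjusted p 0.996) and that of Hif1a at 0.52 ± 0.19 (adjusted p 0.67). None of the 7 genes remained called without corpus callosum replicate 1, where their adjusted p values included 0.0746 for Tpi1, 0.0891 for Bnip3 and 0.162 for Hif1a; without cortex replicate 1 only Bnip3 remained. Of 17 glycolysis genes 3 were called higher, 0 lower, 13 lay above 0 and the median was 0.45. Pkm stood at 0.81 ± 0.20 (adjusted p 0.112) and the lactate exporter Slc16a3 at 0.80 ± 0.20 (adjusted p 0.102). Of 21 hypoxia response genes 2 were called higher, 0 lower, 19 lay above 0 and the median was 0.25. Egln3, an oxygen sensor, had a large but scattered difference of 2.04 ± 0.51 (adjusted p 0.121), from 4.99, 4.59 and 3.70 to 7.66, 6.36 and 5.38.

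Hypoxia-inducible factors bind around the letters ACGTGC, which were searched on both strands (GCACGT on the other) and overlap CACGTG in the run CACGTGC. They stood in 13.6% of the windows of the called genes (14 of 103) and in 6.61% of all windows. Tmem106a entered with overlapping windows that hold the same site. Counted by gene, the shares were 16.2% (13 of 80) and 7.48%. In Atp1b3, Bnip3, Egr2, Gga2, Hif1a, Kcnj2 and Rragc the match overlapped a CACGTG match, so these sites entered both shares. The stretches upstream of the start are shown for 3 called genes of this group, picked from the 13 with a match, with the motif in capitals. They lie at chrX:106186938-106187003 (plus strand), chr7:138909578-138909645 (minus strand) and chr16:36071608-36071673 (minus strand).
Pgk1: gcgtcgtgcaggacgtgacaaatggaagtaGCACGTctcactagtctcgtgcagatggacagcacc
Bnip3: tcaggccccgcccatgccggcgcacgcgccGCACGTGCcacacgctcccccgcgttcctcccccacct
Fam162a: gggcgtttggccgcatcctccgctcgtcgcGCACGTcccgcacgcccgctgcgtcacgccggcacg
In Bnip3 the motif was read on both strands at the same place.

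Another 6 genes were mitochondrial proteins or metabolic enzymes, with a median of 0.87. Chchd10, a small protein of the space between the mitochondrial membranes, read 6.15, 6.18 and 6.01 in cortex and 7.86, 7.20 and 7.41 in corpus callosum (1.38 ± 0.18, adjusted p 0.000498). Clybl, a mitochondrial enzyme of citramalyl-CoA breakdown, read 5.36, 5.37 and 5.39 against 6.61, 6.60 and 6.14 (1.08 ± 0.21, adjusted p 0.0226). The cortex arrays of both genes lay close together and below all corpus callosum arrays. Smim20, an assembly factor of cytochrome oxidase (0.76), the adenylosuccinate synthase Adssl1 (0.99), the glutathione transferase Gsto1 (0.62) and the retinal reductase Dhrs3 (0.59) were also higher. Only Chchd10 remained called without corpus callosum replicate 1. Of 27 subunits of oxidative phosphorylation 0 were called by limma, 25 lay above 0, against 50.8% of all genes, and the median was 0.18, with Ndufa1 at 0.49 ± 0.13 (adjusted p 0.165).

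The 6 annexins and other calcium-dependent or membrane-repair proteins had a median of 1.75. Anxa2, which links membranes to actin and to plasminogen activation, read 5.76, 5.67 and 5.66 in cortex and 8.28, 7.57 and 7.42 in corpus callosum (2.06 ± 0.19, 4.18-fold, adjusted p 1.17e-05). Anxa5, which binds exposed phosphatidylserine, read 8.14, 8.29 and 8.16 against 10.24, 9.86 and 9.74 (1.75 ± 0.14, adjusted p 2.19e-06). Lgals1, a galectin, read 8.27, 8.42 and 8.51 against 10.23, 9.79 and 9.77 (1.53 ± 0.17, adjusted p 9.05e-05). The cortex arrays lay close together in these 3 genes, the corpus callosum arrays less so for Anxa2 (SD 0.46), and the gap between the regions was between 1.25 and 1.66. Myof, a ferlin of membrane fusion and repair, read 5.33, 4.53 and 4.75 against 7.44, 6.27 and 6.28 (1.80 ± 0.25, adjusted p 0.000959). The calcium sensor S100a1 read 5.89, 6.05 and 6.38 against 8.43, 7.75 and 7.37 (1.74 ± 0.22, adjusted p 0.000278). Anxa4 rose by 1.24. All 6 remained called whichever array was left out, the only group of the 13 for which this held. In the list of galectins, annexins and S100 proteins 5 of 18 rose and 0 fell (median 0.37), and Lgals3, which encodes galectin 3, missed the threshold at 0.53 ± 0.15 (adjusted p 0.206).

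Actin, adhesion and motor proteins made up 12 genes with a median of 0.98. Itgax encodes the integrin chain CD11c and read 6.10, 5.41 and 5.71 in cortex and 9.80, 8.30 and 8.43 in corpus callosum (3.11 ± 0.28, adjusted p 1.17e-05). Crip1, a LIM domain protein, read 7.53, 7.40 and 7.23 against 9.59, 8.79 and 8.66 (1.63 ± 0.21, adjusted p 0.000533). Nexn, nexilin, which binds actin filaments, read 7.74, 7.30 and 7.12 against 9.39, 8.73 and 8.64 (1.53 ± 0.21, adjusted p 0.001). Corpus callosum replicate 1 was the highest array for all 12 genes of the group. The LIM protein Fblim1 (0.97) and parvin beta, Parvb (0.91), act where integrins join actin. The others were the small GTPase Rap2b (1.38), the semaphorin receptor Plxnc1 (1.32), the tetraspanin Cd9 (0.98), the motor Myo5a (0.81), the sarcomere protein gene Mybpc1 (0.87), pleckstrin, Plek (0.64), and the adhesion molecule Cadm1 (0.59). The further probe sets of Cd9 and Rap2b stood at 0.25 ± 0.13 (adjusted p 0.896) and 1.06 ± 0.26 (adjusted p 0.232) in limma's fit over all probe sets. Of the 12 genes 7 remained called whichever array was left out. In the list of the actin cytoskeleton 1 of 28 rose (Myo5a), 0 fell and the median was 0.02; Myo1e, another myosin, stood at 1.22 ± 0.28 (adjusted p 0.0766) and Vim, vimentin, at 0.61 ± 0.16 (adjusted p 0.17). Among 18 integrin subunits only Itgax was called, the median was -0.04, and Itgb5 stood at -0.40 ± 0.15 (adjusted p 0.465).

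**Figure D3:**
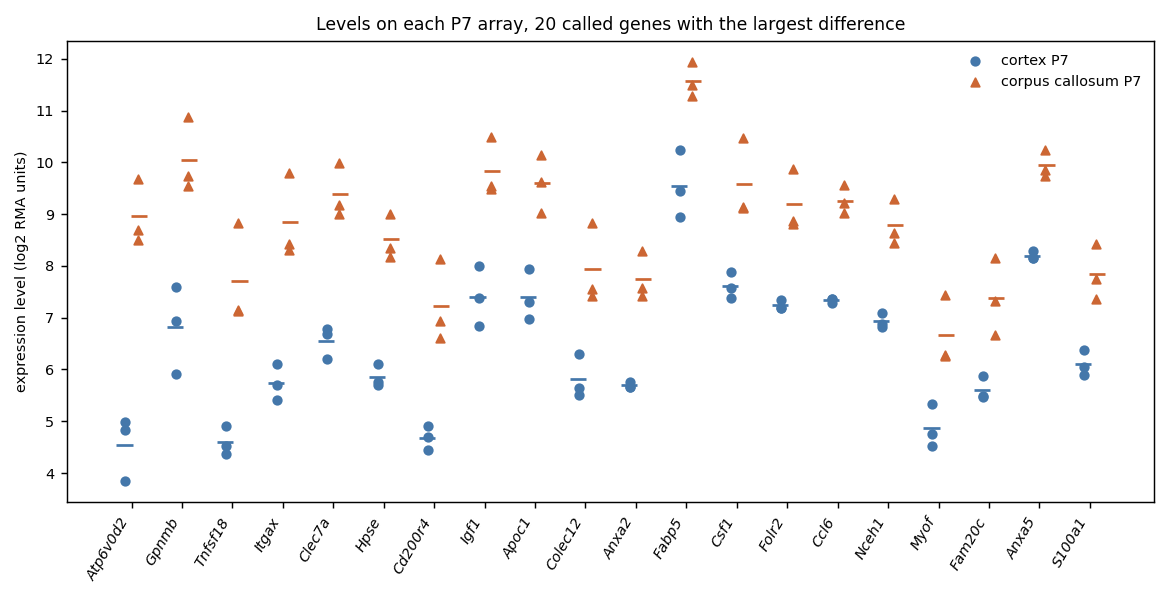
Levels (log2 RMA units) of the 20 called genes with the largest difference on the 3 cortex (circles) and 3 corpus callosum (triangles) P7 arrays; bars are group means. In each gene every triangle lies above every circle, with gaps from 0.80 in Fam20c to 3.51 in Atp6v0d2, and for all 20 the top triangle is corpus callosum replicate 1.

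Ligands formed a group of 10 with a median of 1.5. Igf1, which supports oligodendrocytes and neurons, read 8.0, 6.84 and 7.38 in cortex and 10.49, 9.54 and 9.49 in corpus callosum (2.44 ± 0.27, adjusted p 9.05e-05). Csf1, a ligand of the receptor on which microglial survival depends, read 7.88, 7.39 and 7.57 against 10.47, 9.13 and 9.13 (1.97 ± 0.28, 3.90-fold, adjusted p 0.00118). Tnfsf18, a ligand of the tumour necrosis factor family, read 4.37, 4.53 and 4.91 against 8.83, 7.14 and 7.16 (3.11 ± 0.49, adjusted p 0.00331). In the latter 2 genes replicates 2 and 3 of corpus callosum nearly coincided and replicate 1 lay more than 1 log2 unit above them. Other growth factors were not called: in a list of 27 only Igf1 and Csf1 rose, 0 fell and the median was 0.03.

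The chemokines Ccl3, Ccl4, Ccl6 and Ccl9 attract myeloid cells and other leukocytes. Ccl6 read 7.37, 7.29 and 7.35 in cortex and 9.56, 9.01 and 9.21 in corpus callosum (1.92 ± 0.22, 3.79-fold, adjusted p 0.000102). Ccl9 read 8.92, 8.42 and 8.68 against 10.57, 10.06 and 10.20 (1.60 ± 0.17, adjusted p 5.31e-05). Both remained called in every alternative run and whichever array was left out, whereas Ccl3 (1.40 ± 0.28, adjusted p 0.0267) and Ccl4 (0.75 ± 0.16, adjusted p 0.0397) were lost without corpus callosum replicate 1, Ccl3 at an adjusted p of 0.256. These were the 4 of 20 chemokine ligands that were called higher, 0 were called lower, 13 lay above 0 and the median was 0.22. Cxcl12 stood at 0.54 ± 0.15 (adjusted p 0.203) and Ccl24 at 0.60 ± 0.16 (adjusted p 0.182). Mif, macrophage migration inhibitory factor, rose by 0.88, Il1rn, the antagonist of the interleukin 1 receptor, by 0.86, and Dkk2, an inhibitor of Wnt signalling, by 1.04. In the list of cytokines and inflammasome genes 3 of 25 rose (Il1rn, Tnfsf18 and Mif), 0 fell and the median was 0.00, while Il1a, an agonist of that receptor, lay at -0.54 ± 0.19 (adjusted p 0.456).

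Receptors and other surface proteins of immune cells numbered 8, with a median of 1.77. Clec7a, the beta-glucan receptor dectin-1, read 6.79, 6.20 and 6.68 in cortex and 9.99, 9.17 and 9.01 in corpus callosum (2.83 ± 0.33, adjusted p 0.000145). Cd200r4, of the CD200 receptor family, read 4.91, 4.45 and 4.69 against 8.14, 6.61 and 6.93 (2.54 ± 0.31, adjusted p 0.000266). Colec12, a scavenger receptor with a collagen-like stalk, read 6.29, 5.63 and 5.51 against 8.82, 7.56 and 7.42 (2.12 ± 0.30, 4.35-fold, adjusted p 0.00118). All 3 had gaps of more than 1 log2 unit between the regions. Folr2, a folate receptor of macrophages, read 7.34, 7.19 and 7.18 against 9.88, 8.88 and 8.81 (1.95 ± 0.22, 3.87-fold, adjusted p 9.05e-05). Folr2 is also a marker of macrophages at the borders of the brain, and it was the only called gene among 10 such markers, whose median was -0.13. The mean level of the 10 border markers was 6.19 to 6.63 on the cortex arrays and 6.39 to 6.63 on the corpus callosum arrays. Mrc1, another of them, read 10.90, 11.18 and 11.07 in cortex and 10.06, 10.85 and 10.81 in corpus callosum (-0.48 ± 0.27, adjusted p 0.837), and Ms4a7 stood at 0.65 ± 0.29 (adjusted p 0.653).

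The remaining receptors are known from lymphocytes as well as from myeloid cells. Lag3, an inhibitory receptor that binds MHC class II, read 8.03, 7.81 and 7.57 in cortex and 9.82, 8.93 and 9.06 in corpus callosum (1.47 ± 0.23, adjusted p 0.0026). The costimulatory receptor Cd28 rose by 1.59, the sialic acid lectin Cd22 by 0.65 and the chemokine receptor Cxcr4 by 0.75. Of the 6 lymphocyte markers measured none was called, and their median was -0.07. Of the 8 receptors 5 remained called whichever array was left out; Cd28 was lost only without corpus callosum replicate 1, at an adjusted p of 0.0524. Of 23 genes from families of inhibitory receptors and their ligands 3 rose, 0 fell and the median was 0.04. Lilrb4a at 1.43 ± 0.34 (adjusted p 0.0825) and Siglece at -0.77 ± 0.19 (adjusted p 0.101) stood on opposite sides. Cd200r4, Lilrb4a, Acot1 and Bcl2a1a belong to families of close copies, and hybridisation between copies was not tested.

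AP-1, a dimer of Fos and Jun family proteins, typically binds the letters TGACTCA, which read TGAGTCA on the other strand. The search was wider and took TGANTCA, with any central base. It therefore also counted TGAATCA, the match of Igf1 below, which is not the typical site. TGANTCA stood in 11.7% of the windows of the called genes and in 7.26% of all windows, and counted by gene in 15% and 8.42%. The stretches upstream of the start are shown for 3 called genes from the groups above, picked from the 12 with a match, with the motif in capitals. They lie at chr7:128129464-128129530 (plus strand), chr10:87861044-87861110 (plus strand) and chr7:101845369-101845435 (minus strand).
Itgax: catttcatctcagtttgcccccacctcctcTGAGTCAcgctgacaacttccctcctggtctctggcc
Igf1: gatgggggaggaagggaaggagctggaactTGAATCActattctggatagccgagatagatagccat
Folr2: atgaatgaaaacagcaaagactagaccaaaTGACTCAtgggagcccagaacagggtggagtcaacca
Searched in the same way on both strands, GAGGAAG, a core of PU.1 sites, stood in 13.6% of the windows of the called genes and 13.2% of all windows. GCGGGGG, part of EGR sites, stood in 19.4% and 13.9%. Counted by gene, the shares were 17.5% and 14.9% for GAGGAAG, and 25% and 15.4% for GCGGGGG.

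Secreted and extracellular proteins numbered 5, with a median of 1.69. Hpse, heparanase, which cuts heparan sulfate chains, read 6.11, 5.75 and 5.69 in cortex and 9.01, 8.35 and 8.18 in corpus callosum (2.66 ± 0.20, adjusted p 2.19e-06). Fam20c, a kinase of secreted proteins, read 5.88, 5.46 and 5.49 against 8.15, 6.67 and 7.32 (1.77 ± 0.27, adjusted p 0.00203). The protease inhibitor Slpi read 6.89, 6.03 and 6.35 against 8.65, 8.03 and 7.66 (1.69 ± 0.22, adjusted p 0.000465). Corpus callosum arrays were the higher ones throughout, but those of Fam20c were spread more widely (SD 0.74) than its cortex arrays (SD 0.23). The complement protease C2 rose by 1.58 and Mamdc2, which encodes a matrix protein, by 1.41. Mamdc2 was lost when any of the 3 cortex arrays was left out (adjusted p up to 0.162), and the other 4 remained called whichever array was left out. C2 was the only called gene of 15 complement genes, whose median was 0.00, and C3ar1, a receptor for a complement fragment, stood at 0.47 ± 0.13 (adjusted p 0.236). Hpse was the only called gene of 26 in the list of heparan sulfate and matrix proteases (median 0.19), with the urokinase receptor Plaur at 1.36 ± 0.30 (adjusted p 0.0604).

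Ion and solute transporters numbered 5, with a median of 1.11. Ank, which exports pyrophosphate and ATP, read 7.30, 6.79 and 7.09 in cortex and 8.72, 8.17 and 8.15 in corpus callosum (1.29 ± 0.19, adjusted p 0.00203). Ttyh2, of a family of chloride channel-like proteins, read 6.93, 6.69 and 6.59 against 8.18, 7.73 and 7.62 (1.11 ± 0.16, adjusted p 0.00151). Both remained called whichever array was left out. Kcnj2, an inward rectifier potassium channel, rose by 1.18, Slc23a2, a carrier of vitamin C, by 1.0 and Atp1b3, a subunit of the sodium pump, by 0.56. Kcnj2 was lost whichever array was left out and is among the 7 called genes of which this was true.

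The last 7 genes with an assigned role had a median of 0.74. Egr2, an early growth response transcription factor, read 6.57, 6.73 and 6.89 in cortex and 8.49, 7.45 and 7.82 in corpus callosum (1.19 ± 0.20, adjusted p 0.00658). Aplp2, a relative of the amyloid precursor protein, read 8.34, 8.31 and 8.17 against 9.85, 9.28 and 9.24 (1.19 ± 0.14, adjusted p 0.000245). The corpus callosum arrays were separate from the cortex arrays by 0.56 and 0.90. The others were Vat1, a vesicle amine transport protein (1.45), the endocytic adaptor Reps2 (0.74), the survival factor Bcl2a1a (0.73), the vesicle protein Syngr1 (0.71) and the sialyltransferase St6gal1 (0.58). Egr2 was the only called gene among 26 immediate early and stress genes (median -0.02), with Atf3 at 1.09 ± 0.26 (adjusted p 0.0999). Mitf and Hif1a were the 2 called genes among 23 transcription factors of microglia (median 0.05), with Bhlhe40 at 0.89 ± 0.23 (adjusted p 0.134). A further 7 called genes had no role described here: the membrane proteins Tmem106a and Tmem205, Atxn10, 3 genes known by locus or clone names, and Zfp975. Zfp975 read 6.20, 6.16 and 6.43 in cortex and 5.55, 5.43 and 5.73 in corpus callosum (-0.70 ± 0.14, adjusted p 0.0271); it was lost without corpus callosum replicate 1 or 2 or any cortex array.

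**Figure D4:**
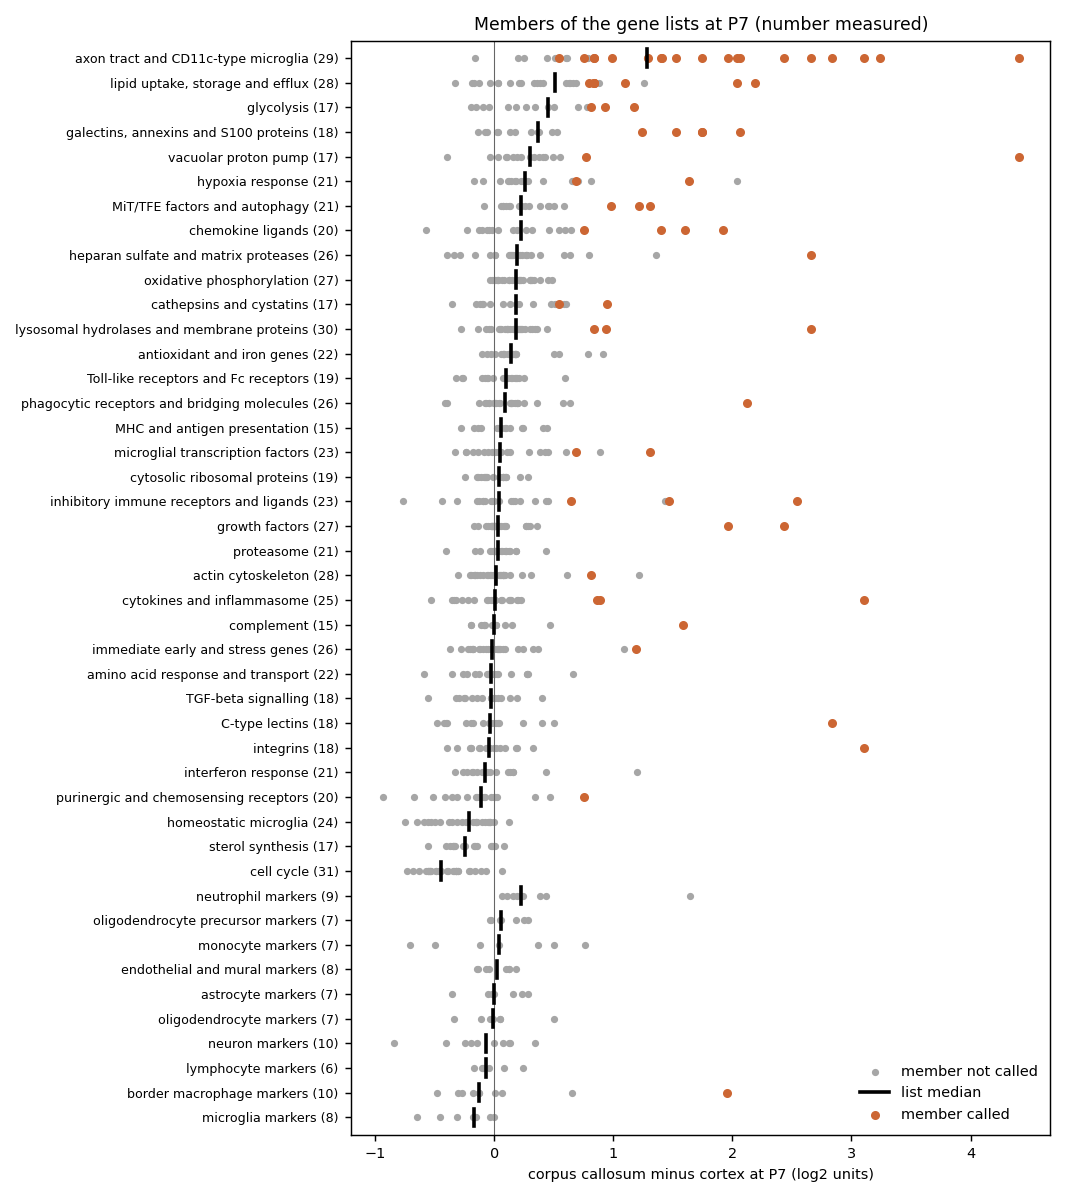
Points are the measured members of each gene list, placed by their difference of corpus callosum minus cortex at P7 (log2 units), orange where called; black bars are list medians and the number measured follows each name. The list of axon tract and CD11c-type microglia has the highest median, 1.29, and the lists of homeostatic microglia, sterol synthesis and the cell cycle lie mostly below 0 with no called member.

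Many of the called genes are known from microglia of developing axon tracts and from CD11c-positive microglia. Of 29 measured genes of that list 19 rose, 0 fell and the median was 1.29; the list was drawn up with earlier results of these data known and is no independent evidence. Ephx1, epoxide hydrolase, was just outside at 1.29 ± 0.28 (adjusted p 0.0505), with 6.21, 6.06 and 5.93 in cortex and 8.04, 7.02 and 6.99 in corpus callosum. Without corpus callosum replicate 1, 14 of the 29 were called and the median was 0.90.

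Apart from Zfp975 no gene was called lower in corpus callosum. Homeostatic microglia genes, which are high in resting adult microglia, were called in 0 of 24 by limma, but 23 of the 24 lay below 0 (median -0.21) and in 14 all corpus callosum arrays lay below all cortex arrays, against 7.76% of all genes. Tgfbr1, a receptor for TGF-beta, read 10.08, 9.89 and 9.77 in cortex and 9.17, 9.43 and 9.46 in corpus callosum (-0.56 ± 0.12, adjusted p 0.0505). Selplg stood at -0.75 ± 0.19 (adjusted p 0.122), Golm1 at -0.49 ± 0.13 (adjusted p 0.182), Tmem119 at -0.65 ± 0.22 (adjusted p 0.394) and Siglech at -0.46 ± 0.15 (adjusted p 0.329). Of 31 cell cycle genes 0 were called, 30 lay below 0, 20 without overlap, and the median was -0.45. Over all genes 50.8% lay above 0 and 7.76% lay below without overlap. Cdc20, an activator of the anaphase-promoting complex, read 7.65, 7.55 and 7.64 in cortex and 6.65, 7.07 and 7.22 in corpus callosum (-0.63 ± 0.15, adjusted p 0.105). The mitotic motor genes Kif11 (-0.74 ± 0.22, adjusted p 0.265) and Cenpe (-0.54 ± 0.16, adjusted p 0.282) likewise did not pass. Without corpus callosum replicate 1 the median of the cell cycle list was -0.21 and that of the homeostatic list -0.14.

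The remaining lists held few or no called genes. Those of C-type lectins (1 of 18, median -0.04), phagocytic receptors (1 of 26, median 0.09) and purinergic and chemosensing receptors (1 of 20, median -0.11) each contained 1 gene already described. No gene was called in the lists of MHC and antigen presentation (15 measured, median 0.06), the interferon response (21, -0.07), amino acid response (22, -0.03), antioxidant and iron genes (22, 0.14), ribosomal proteins (19, 0.04), the proteasome (21, 0.03), TGF-beta signalling (18, -0.03) and Toll-like and Fc receptors (19, 0.10). Within them Ifitm2 stood at 1.19 ± 0.29 (adjusted p 0.0995) and Hmox1, heme oxygenase, at 0.91 ± 0.21 (adjusted p 0.0787).

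Neutrophil markers were highest on corpus callosum replicate 1. All 9 neutrophil markers had a difference above 0 (median 0.22), against 50.8% of all genes. Their mean level was 4.80 to 4.97 on the cortex arrays, 5.77 on corpus callosum replicate 1 and 4.99 and 5.0 on the other corpus callosum arrays. S100a8 read 4.11, 4.99 and 3.85 in cortex and 7.35, 5.35 and 5.20 in corpus callosum (1.65 ± 0.81, adjusted p 0.746). The mean level of the 7 monocyte markers lay between 5.76 and 5.88 in cortex and between 5.82 and 5.93 in corpus callosum, with Lyz2 at 0.76 ± 0.19 (adjusted p 0.119) and Plac8 at -0.70 ± 0.18 (adjusted p 0.144). The part of these cells in the called differences was not tested.

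Just inside the threshold lay Myo5a, Acot1, Gga2, Cxcr4 and Bcl2a1a, with adjusted p values from 0.0435 to 0.0491. Just outside it lay Serpinb6b (0.84), Mbp (0.50), Ephx1 (1.29), Clcf1 (-0.70) and Tgfbr1 (-0.56), with adjusted p values of 0.0501 to 0.0505.

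The arrays of the other ages did not enter the difference at P7, apart from the shared estimate of the spread. At P3 all 99 genes were again higher in corpus callosum than in cortex, against 51.9% of all genes, with a median difference of 0.71 against 0.01 over all genes. A difference above 0.5 at P3 was reached by 73 of the 99, against 2.83% of all genes, and 36 of the 99 were called at P3, where 0.352% of all genes were called higher. By group, 5 of 6 annexins and related genes, 5 of 13 lysosomal genes, 5 of 10 lipid genes, 4 of 8 receptors and 0 of 5 transporters were called at P3. Bnip3 was higher by 1.75 at P3 (adjusted p 0.0074) and 1.64 at P7, Lag3 by 1.43 (adjusted p 0.0074) and 1.47, and Gsto1 by 0.84 (adjusted p 0.0073) and 0.62. Bcl2a1a, by contrast, differed by 0.06 at P3 (adjusted p 0.92) and Dpp7 by 0.10 (adjusted p 0.78). The difference was larger at P7 than at P3 for 94 of the 99 genes, which were chosen at P7. In limma's test of that change itself 0 of 22180 genes were called, with 1260 at an unadjusted p under 0.05 and a lowest adjusted p of 0.0952; the description labels of P3 arrays also start with another prefix than those of P7 arrays.

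In the adult the difference was small for most of these genes. Of the 99 genes 43 were higher in corpus callosum, against 51.8% of all genes, the median difference was -0.03, and 6 exceeded 0.5, against 1.27% of all genes. Only Lpl was called, at 1.70 ± 0.15, which is the only gene called in the adult (0.00451% of genes tested). Clec7a differed by 1.74 in the adult without passing the test (adjusted p 0.236), Apoe by 0.69 (adjusted p 0.32), Il1rn by 0.64 (adjusted p 0.38) and Fabp5 by 0.63 (adjusted p 0.54). The lipid group had the highest adult median, 0.39, and the glycolysis and hypoxia group the lowest, -0.34. Over the 99 genes the median of the group mean levels was 7.18 in cortex and 8.51 in corpus callosum at P7, and 6.47 in cortex and 6.69 in corpus callosum in the adult. Adult levels of Hpse (4.97 in cortex, 4.92 in corpus callosum) and Atp6v0d2 (3.71, 3.92) lay below the adult array medians of 5.65 to 5.74. Itgax (5.73, 5.67) and Gpnmb (5.68, 5.63) lay near these medians, whereas Ccl9 (9.08, 9.06) lay well above. Signal near background was not told apart from it, so a small adult difference in such genes does not show equal expression.

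**Figure D5:**
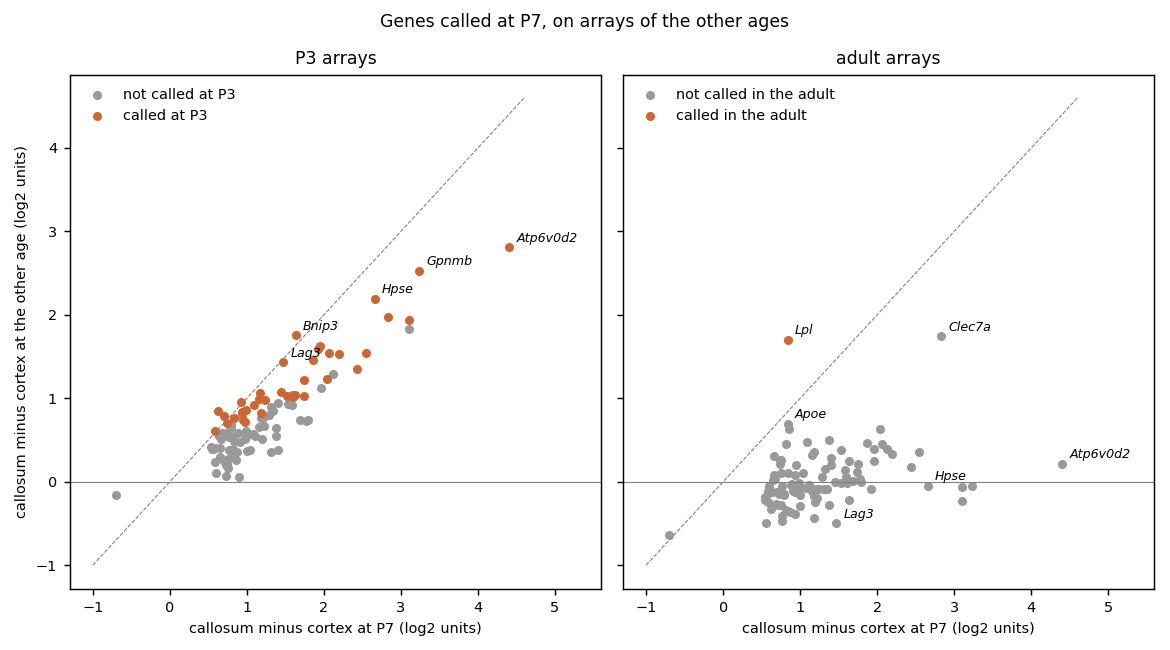
Each point is 1 of the 100 genes called at P7, with its P7 difference (corpus callosum minus cortex, log2 units) on the horizontal axis and its difference at P3 (left) or in the adult (right) on the vertical axis; orange points were called at that age and the dashed line marks equal differences. At P3 the 99 higher genes all lie above 0 and 36 are orange, whereas in the adult 43 lie above 0 and only Lpl is orange.

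The regional difference at P7 exceeded that in the adult for 98 of the 99 genes, Lpl being the exception. In limma's test of that change 45 genes were called, 0.203% of genes tested, of which 39 were called at P7; the same P7 arrays enter both tests. By group these were 5 of 6 annexins and related genes (Anxa2, Anxa4, Anxa5, S100a1 and Myof), 5 of 7 genes of glycolysis and hypoxia (Tpi1, Pgk1, Pgam1, Hif1a and Slc37a2), 4 of 10 ligands (Igf1, Ccl6, Ccl9 and Mif), 4 of 13 lysosomal genes, 2 of 10 lipid genes and 0 of 4 genes of MITF and nutrient sensing. Tpi1 passed from 1.17 at P7 to -0.43 in the adult (change 1.60, adjusted p 0.0289) and Lag3 from 1.47 to -0.49 (change 1.96, adjusted p 0.0149). Atp1b3, with a difference of 0.56 at P7, was at -0.49 in the adult (change 1.06, adjusted p 0.00872). Clec7a, Fabp5, Apoe and Plin2 did not pass this test, with changes of 1.09, 1.41, 0.14 and 0.62 and adjusted p values of 0.61, 0.197, 0.97 and 0.629. The count of 45 fell to 20 without corpus callosum replicate 1, 21 without cortex replicate 1, 12 without cortex replicate 2 and 13 without cortex replicate 3, and 12 genes passed whichever P7 array was left out.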

How the data were processed

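Expression was measured on Affymetrix gene arrays after amplification with the Ovation PicoSL WTA System V2 and labelling with the Encore Biotin Module, per the labels' protocols. The authors deposited expression values made with RMA, per the submitters' processing notes; RMA corrects for background, equalises array distributions and summarises each probe set over its probes. The deposited values were taken as log2, since the base is not given in the sources used here and they ran from 0.87 to 13.8. RMA hides any change of total RNA per cell, and signal near background was not told apart from it. The number of arrays, 3 per group, limits the precision of every value.

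Of 41345 probe sets, 23521 had 1 gene symbol in the platform annotation, 1814 had several and 16010 had none; 23328 matched the RefSeq gene table by gene identifier and 0 symbols were updated. Where a symbol had more than 1 probe set (1082 symbols), the brightest over all arrays stood for the gene, which gave 22180 genes. Group means were fitted to all 18 arrays by limma 3.58.1 in R 4.3.3 (lmFit, contrasts.fit, then eBayes with no trend), which left 12 residual degrees of freedom. Tests were two-sided and adjusted over the whole table after Benjamini and Hochberg; the value after ± is a standard error unless marked SD. The scripts were tested on simulated data. Alternatives were the P7 arrays alone, a trended variance prior, a filter on dim genes, repeated quantile normalization, subtraction of array medians, the mean over probe sets, array weights, a Y-linked covariate, the replicate number as a block and leaving out each P7 array.

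The members, the gene lists and the alternatives were chosen with earlier results of these data known, and the function groups and motifs were assigned after the calls. Every called gene may be named. Array values are given for the 20 largest differences and up to 2 further called genes per function group; among genes not called, up to 3 members per list with the smallest p and the 5 genes on either side of the threshold are named, some with array values. Kdm5d, Eif2s3y, Uty and Xist describe the sex of the animals.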

Additional observations from a re-analysis of the deposited data

Results flagged for a closer look

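The regional difference changed between P7 and the adult, by limma's test of the difference itself, for 45 genes (adjusted p under 0.05), 44 with a larger and 1 with a smaller value at P7. The values below are the difference at P7 minus the difference in the adult, in log2 units, and the P7 arrays that called most of these genes enter this test as well. Adult levels of Atp6v0d2, Gpnmb, Itgax and Hpse lay near or below the array medians in both regions, which limits what their changes show.

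Among lysosomal and endosomal genes the change was 4.19 for Atp6v0d2, 3.29 for Gpnmb, 1.27 for Pld3 and 1.03 for Slc9a7. The secreted proteins Hpse and Slpi changed by 2.71 and 1.68, and the lipid genes Apoc1 and Nceh1 by 1.86 and 1.40. Actin and adhesion genes were Itgax (3.17), Nexn (1.55), Fblim1 (1.09) and Cd9 (1.02). The annexin group held Myof (1.80), S100a1 (1.63), Anxa2 (1.61), Anxa5 (1.53) and Anxa4 (1.33). Ligands were Igf1 (2.26), Ccl6 (2.01), Ccl9 (1.62) and Mif (0.92), and receptors were Cd200r4 (2.19), Lag3 (1.96) and Folr2 (1.56).

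Glycolysis and hypoxia genes were Tpi1 (1.60), Pgk1 (1.31), Slc37a2 (1.23), Pgam1 (1.16) and Hif1a (0.96), beside the metabolic genes Chchd10 (1.66), Smim20 (1.17) and Gsto1 (0.95). Transporters were Slc23a2 (1.28), Ttyh2 (1.14) and Atp1b3 (1.06). The others called at P7 were Egr2 (1.44), Aplp2 (1.36), Tmem106a (1.15) and Syngr1 (0.99).

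There were 6 genes that changed between the ages without being called at P7. Acadl, an acyl-CoA dehydrogenase of mitochondrial fatty acid oxidation, changed by 1.12, from 0.57 at P7 to -0.54 in the adult. S1pr1, a sphingosine 1-phosphate receptor, changed by 1.23, Dnajb14, a chaperone partner, by 1.05, Ndufb7, a subunit of respiratory complex I, by 0.93 and Armcx3 by 0.83. H60b, which encodes a ligand of the activating receptor NKG2D, was the only gene with the opposite sign, at -1.47 (from -0.45 at P7 to 1.02 in the adult).

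Whichever P7 array was left out, 12 of the 45 genes passed, and 10 did in every alternative that tested them: Atp6v0d2 (not tested in the filter on dim genes), Gpnmb, Itgax, Hpse, Ccl6, Chchd10, Ccl9, Anxa5, Aplp2 and Smim20.

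Probe sets outside the gene comparison also differed at P7. In a fit over all 41345 probe sets, 10 of those with several symbols or none were called. The 7 with no symbol were higher in corpus callosum, by 0.92 to 3.40, and the 3 with several symbols stood at 2.07, 0.56 and -2.66; none of them can be assigned to a single gene here.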

How the results depend on the processing

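The 100 genes kept their direction in every alternative that tested them, and 28 kept their call. Their P7 arrays did not overlap between the regions, so leaving out or weighting arrays could not reverse a direction. The filter on dim genes did not test 9 of the 100, of which Atp6v0d2, Cd200r4, Gm5547 and Tnfsf18 are among the 28. Leaving out 1 P7 array gave 48 to 90 called genes (48 to 88 higher, 0 to 2 lower), 0 to 1 for P7 against P3 and 12 to 47 for P7 against the adult. With only the 6 P7 arrays in the fit 40 were called (39 higher), 36 of them among the 100. With array weights 236 were called (197 higher, 39 lower) and 105 for P7 against the adult. The count lower was 6 with a trended variance prior, 13 without dim genes, 3 after quantile normalization, 2 with array medians subtracted, 3 with the mean over probe sets and 6 with the Y-linked covariate. The count for P7 against the adult was 79 with the trended prior and 85 without dim genes. With the replicate number as a block 84 genes were called at P7, 74 of them among the 100, and 28 for P7 against the adult, 23 of them among the 45. Samples of the same number correlated at 0.13, 0.078 and 0.049 at P7 and best with each other, although corpus callosum replicate 3 reached 0.048 with cortex replicate 2. The values were 0.30, 0.062 and 0.245 in the adult and 0.026, 0.016 and 0.11 at P3. At these ages the same number was not always the best match. Cortex replicate 2 correlated at 0.198 with corpus callosum replicate 3 in the adult, and at 0.086 with corpus callosum replicate 1 at P3. In each of the 6 groups replicate 1 had the lowest Y-linked mean and the highest Xist. The replicate number thus goes with sex, and a shared source was not told apart from shared sex. The main fit treated samples of the same number as sharing a number and not a source. The cause of the changes in the counts was not tested, apart from fewer arrays or genes. Depth has no meaning here. Signal near background limits the 12 higher genes whose P7 cortex mean lay below the array medians, and the adult values of genes such as Hpse and Atp6v0d2.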
